A study of Mus musculus with 24 samples.

Results

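CD4+ T cells lacking Aim2 were compared at 24 h and at 6 h of stimulation. The comparison takes 6 of the 24 libraries of the series, chosen by their labels: the Aim2-/- libraries of mice 1, 2 and 4 at 6 h and those of the same 3 mice at 24 h. All cells came from spleens of mice on the C57BL6 background and were cultured in the medium labelled RP10. At both times they were under antibodies to CD3 and CD28, so each group carries the Aim2-/- genotype and the stimulation. The groups differ in the time under stimulation. The genotype is that of every cell of the animal, the selected cells are a mixture of naive, memory and regulatory CD4+ cells, and neither age nor sex is given in the labels. Cells of each mouse were also sequenced before stimulation and at 3 h, and mice labelled wild type (WT; mice 1, 3 and 4) were taken through the same 4 times. Values of single libraries are always given in the order of mice 1, 2 and 4 (WT mice 1, 3 and 4), in CPM, which is counts scaled to a common library size (TMM factors, per 1000000 counts).

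T cells leave quiescence when the T cell receptor, signalling through the CD3 chains, and the co-receptor CD28 are engaged together. Transcription factors that need no new protein synthesis, such as the FOS, EGR and NR4A families, appear first, followed by cytokines, by growth in cell mass through ribosome production, amino acid use and glycolysis, and, about a day after stimulation, by entry into S phase and then mitosis. Entry into S phase depends on cyclin E with CDK2 and on E2F factors, which drive the genes of DNA replication, whereas many genes of G2 and mitosis are held by the DREAM and MuvB complexes at NF-Y and CHR elements of their promoters. AIM2 itself is a cytosolic sensor of double-stranded DNA that assembles an inflammasome. These are textbook facts and not results of these libraries.

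Aim2 (ENSMUSG00000037860, chr1:173350879-173466040, plus strand) was still counted in the Aim2-/- libraries, at 11.4, 10.7 and 8.17 CPM at 6 h and 6.55, 7.15 and 5.28 CPM at 24 h. Counts per gene do not show which exons these reads came from, so they check the Aim2-/- genotype only in part. The 3 libraries of 24 h lay below those of 6 h (log2 change -0.67, SE 0.19, adjusted p = 0.00416). WT mice 3 and 4 held 33.0 and 32.5 CPM at 6 h and 34.0 and 38.6 CPM at 24 h, all above the Aim2-/- libraries. The libraries labelled WT 1 held 11.5 and 5.57 CPM, within or next to the range of the Aim2-/- libraries at the same time. That mouse went against its label, and comparisons with WT cells are therefore given with and without it.

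Library totals lay between 19715161 and 21627018 counts over the 24 libraries, at which 3 counts, used as the floor of detection, correspond to 0.132 to 0.154 CPM in the 6 libraries compared. The markers of CD4 T cells were high throughout: Cd4 stood at 647, 599 and 472 CPM at 6 h and 550, 587 and 566 CPM at 24 h, and the summed level of 6 markers was 3312 to 3527 CPM at 6 h and 2579 to 2993 CPM at 24 h. Markers of other cells were low but moved as well, beside 32.4% of all genes tested lower at 24 h and 30.5% higher. Without mouse as a block in the fit, fewer myeloid, neutrophil, B cell and erythroid markers were lower at an adjusted p under 0.05. Of 8 myeloid markers 7 were lower at 24 h and none higher, their summed level being 80.7 to 245 CPM at 6 h and 35.2 to 197 CPM at 24 h, and of 7 neutrophil markers 6 were lower (47.2 to 184 against 9.16 to 83.0 CPM). The B cell list had 4 of 7 lower (17.2 to 49.2 against 6.09 to 29.2 CPM), the dendritic list 3 of 5 (22.6 to 36.8 CPM against at most 19.5 CPM) and the erythroid list 3 of 5 (21.6 to 485 against 27.0 to 237 CPM). For NK cells 1 of 4 markers was higher and 2 lower, for basophils and mast cells 1 higher and 1 lower of 5, for platelets 1 higher and 2 lower of 4, and for CD8 T cells 1 of 2 was higher, with summed levels of 8.08 to 13.3 CPM at 6 h and 11.3 to 15.6 CPM at 24 h. The summed levels of the lists of other cells overlapped between the times, except for the dendritic list. Within each mouse, the summed myeloid, neutrophil, B cell and dendritic levels were lower at 24 h and those of NK and CD8 T cells higher. Erythroid, platelet, and basophil and mast cell sums rose in some mice and fell in others. Pax5 and Ms4a1, which define B cells, stayed at or below 2.59 CPM. In bulk RNA, fewer cells of a type and less RNA per cell cannot be told apart, and the part of other cells in the results below was not tested.

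Of 15325 genes tested, 9633 (62.9%) differed between 24 h and 6 h at an adjusted p under 0.05 by edgeR's quasi-likelihood test with mouse as a block, which is the meaning of called here. At 24 h 4675 genes (30.5%) were higher and 4958 (32.4%) lower. Past a log2 change of 1 in size there were 1651 higher (10.8%) and 2141 lower (14.0%), and 182 genes rose and 180 fell by more than 8-fold. The CPM of the 3 libraries of each time did not overlap for 8768 genes (57.2%). The median log2 change over all genes tested was -0.04, with quartiles at -0.64 and 0.52, so a list of genes is set against these values below. With so many genes called, a share of called members near 30.5% in one direction is what any list would show. Levels are relative to the rest of a library and give no amount per cell, so a lower level need not be a fall per cell. Changes are written as log2 change with an approximate standard error (SE or ±). It is the size of the change divided by the square root of its F statistic, and is least reliable where counts are few. Levels are means of 3 libraries unless single libraries are named.

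**Figure D1:**
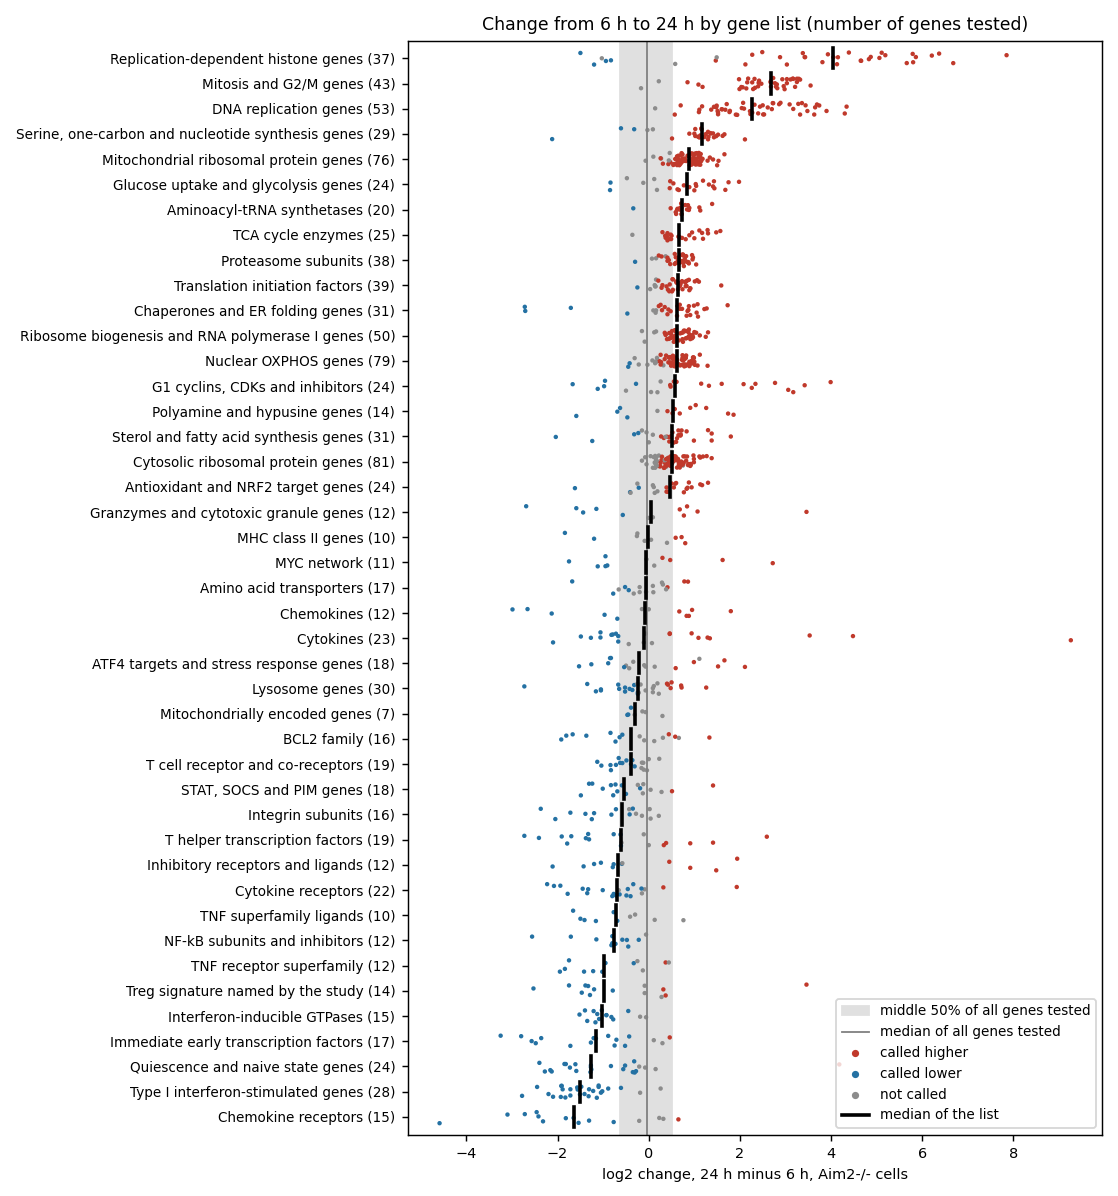
Each point is a gene and each row a list, with the number of genes tested in brackets. The x axis is the log2 change from 6 h to 24 h in Aim2-/- cells, colours mark the call, black bars the list medians, and the grey band the middle 50% of all genes tested (-0.64 to 0.52). Histone, mitosis and replication genes have fitted medians of 4.05, 2.68 and 2.27, the first resting on genes near 0 counts at 6 h, and chemokine receptors at the bottom with -1.65.

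The genes that copy DNA rose together. Of 53 tested, 52 were called higher, none lower, and 1, the origin recognition subunit Orc4 (40.9 to 44.9 CPM, log2 0.14 ± 0.09), was not called; the median log2 change was 2.27. Their summed level was 2812, 2488 and 2828 CPM at 6 h and 10463, 14380 and 12695 CPM at 24 h. The times stood well apart, and mouse 2, the lowest at 6 h, was the highest at 24 h. Orc1 (ENSMUSG00000028587, chr4:108579423-108614833, plus strand), the origin recognition subunit that is remade in each cycle, was at 3.60, 2.59 and 4.52 CPM at 6 h and 61.7, 81.4 and 68.6 CPM at 24 h (log2 change 4.34, SE 0.22, adjusted p = 1.7e-12). Rrm2 (ENSMUSG00000020649, chr12:24708241-24714146, plus strand), the regulated subunit of ribonucleotide reductase, went from 36.0, 15.7 and 29.6 CPM to 422, 551 and 513 CPM (log2 change 4.30, SE 0.25, adjusted p = 9.4e-12). The groups did not overlap for either gene. Cdc6, which loads the MCM helicase on origins, was at 15.5, 6.74 and 16.7 CPM at 6 h and 93.4, 141 and 114 CPM at 24 h (log2 change 3.28, SE 0.31, adjusted p = 9.9e-09), and the helicase subunit Mcm5 at 112, 99.4 and 104 CPM at 6 h and 444, 728 and 557 CPM at 24 h (log2 change 2.44, SE 0.13, adjusted p = 3.1e-12). Mcm10 (11.3 to 159 CPM, log2 3.90 ± 0.26) and the helicase cofactor Cdc45 (11.2 to 145 CPM, log2 3.74 ± 0.22) followed, whereas the sliding clamp Pcna went from 101, 120 and 134 CPM to 372, 490 and 494 CPM (log2 1.94 ± 0.10).

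The 250 bases before the RefSeq start of 4 of these genes are printed because the families of replication and mitosis genes differ in the motifs they hold there. Positions are of GRCm38.p6, and each sequence runs 5′ to 3′ on the strand of its gene. In Cdc6 (chr11:98907901-98908150, plus strand) and Rrm1 (chr7:102441445-102441694, plus strand), Rrm1 being the large subunit of ribonucleotide reductase, capitals mark GCGGGAA, a form of the E2F site, which Rrm1 holds on the other strand as TTCCCGC. In Cdk1 (chr10:69352913-69353162, minus strand) and Top2a (chr11:99024190-99024439, minus strand), capitals mark TTTGAA, the letters of the CHR element, and CCAAT, those bound by NF-Y, each on either strand (TTCAAA and ATTGG). Other motifs are left unmarked in each gene, and the Rrm1 stretch also holds CCAAT in small letters. For each gene the first window with a match to the marked motifs was printed.
Cdc6: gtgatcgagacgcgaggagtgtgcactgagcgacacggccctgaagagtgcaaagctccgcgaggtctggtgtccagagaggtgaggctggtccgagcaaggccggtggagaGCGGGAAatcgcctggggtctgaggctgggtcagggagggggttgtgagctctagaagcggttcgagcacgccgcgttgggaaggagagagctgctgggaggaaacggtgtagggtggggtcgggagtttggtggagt
Rrm1: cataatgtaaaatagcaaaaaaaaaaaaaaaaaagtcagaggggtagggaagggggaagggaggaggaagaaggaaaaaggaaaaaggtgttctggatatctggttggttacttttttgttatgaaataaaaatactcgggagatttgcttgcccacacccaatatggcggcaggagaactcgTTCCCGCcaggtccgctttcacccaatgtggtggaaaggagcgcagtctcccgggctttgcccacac
Cdk1: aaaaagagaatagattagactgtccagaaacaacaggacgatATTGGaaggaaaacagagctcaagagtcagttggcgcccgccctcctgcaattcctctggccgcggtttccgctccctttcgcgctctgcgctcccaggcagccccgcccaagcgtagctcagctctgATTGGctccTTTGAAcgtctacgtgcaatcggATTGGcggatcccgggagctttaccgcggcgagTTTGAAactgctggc
Top2a: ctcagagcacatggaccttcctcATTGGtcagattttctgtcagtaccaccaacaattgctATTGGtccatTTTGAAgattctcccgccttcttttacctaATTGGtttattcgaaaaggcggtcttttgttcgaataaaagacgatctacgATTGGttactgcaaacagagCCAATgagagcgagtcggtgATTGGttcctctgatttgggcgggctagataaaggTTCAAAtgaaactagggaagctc
The Cdc6 match began 138 bases before the start and that of Rrm1 67 bases. Cdk1 held TTTGAA 71 and 15 bases before its start and CCAAT at 208, 80 and 48, and Top2a held TTTGAA at 179 and 23 and CCAAT at 6 places between 227 and 58 bases before the start.

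Over windows of 250 bases before to 50 after each start, the RefSeq promoter table matched 45 of the 53 replication genes with 57 windows, of which 21 (36.8%) held GCGGGAA on either strand, against 7.97% of the 13486 windows of all genes tested and 4.60% of all 32851 windows. None of the 39 windows of the 36 matched mitosis genes held it. TTTGAA was in 71.8% of the mitosis windows and 15.8% of the replication windows, against 12.4% for genes tested, and CCAAT in 76.9% and 54.4%, against 37.5%. CACGTG, the E-box of MYC and its partners, was in 7.69% and 14.0%, against 9.80%. No motif contains another, but their ends can overlap and a window can hold several. Among all genes called higher past a log2 change of 1, 14.5% of 1306 windows held GCGGGAA, and among those called lower past -1, 4.57% of 1794. A match is a run of letters and not a measured site, and the replication-dependent histone genes did not match the table by symbol.

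**Figure D2:**
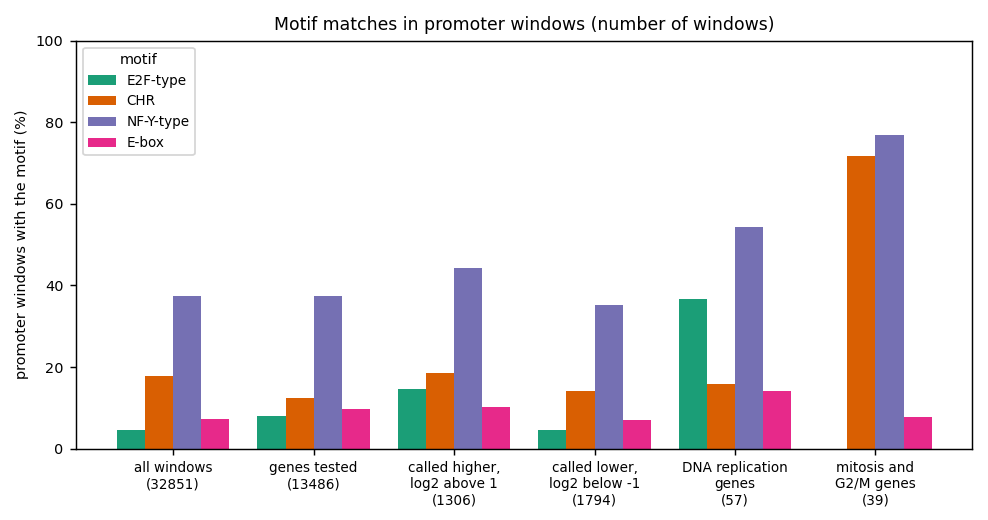
Bars give the percent of promoter windows (300 bases) that hold each of 4 motifs on either strand, for all windows, the genes tested, the genes called past a log2 change of 1 and 2 gene lists, with the number of windows in brackets. The E2F-type motif is in 36.8% of replication windows and in none of the mitosis windows, where CHR (71.8%) and NF-Y-type motifs (76.9%) prevail.

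Mitosis and G2 genes rose next to them, from lower levels. Of 43 tested, 41 were called higher and none lower, with a median of 2.68. The summed level was 1533, 861 and 1283 CPM at 6 h and 5401, 6633 and 6111 CPM at 24 h. Cdk1 (ENSMUSG00000019942, chr10:69335146-69352938, minus strand), the kinase that starts mitosis, was at 36.2, 15.6 and 35.2 CPM at 6 h and 302, 304 and 336 CPM at 24 h (log2 change 3.55, SE 0.23, adjusted p = 3.7e-11). Top2a, which untangles replicated DNA, was at 157, 73.8 and 123 CPM at 6 h and 702, 1015 and 830 CPM at 24 h (log2 change 2.96, SE 0.27, adjusted p = 5.4e-09), and Mki67, the antigen Ki-67 of cycling cells, at 225, 89.9 and 176 CPM at 6 h and 655, 850 and 719 CPM at 24 h (log2 change 2.32, SE 0.26, adjusted p = 1.3e-07). For all 3 genes mouse 2 was the lowest at 6 h, and the times did not overlap. The members differed among themselves. Aurkb, the kinase of the chromosomal passenger complex (18.9 to 179 CPM, log2 3.32 ± 0.23), Birc5, its partner survivin (20.9 to 183 CPM, log2 3.25 ± 0.21), and cyclin A2, encoded by Ccna2 (34.9 to 290 CPM, log2 3.16 ± 0.25), were among those that changed most, while Ccnb2 (23.8 to 50.5 CPM, log2 1.18 ± 0.18) and Cenpa, the centromeric histone (57.7 to 121 CPM, log2 1.09 ± 0.12), rose less. Cyclin B1 (Ccnb1) went from 8.30, 2.86 and 5.39 CPM to 30.3, 40.5 and 40.3 CPM (log2 2.81 ± 0.28). The exceptions were securin, Pttg1 (43.2 to 38.5 CPM, log2 -0.17 ± 0.08, adjusted p = 0.0638), and Cdc25b (83.2 to 95.4 CPM, log2 0.22 ± 0.14, adjusted p = 0.193).

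Between the signal and S phase stand the G1 cyclins, their kinases and inhibitors. Of 24 tested, 15 were higher and 5 lower, with a median of 0.58. Cyclin E1, encoded by Ccne1 (ENSMUSG00000002068, chr7:38097984-38107534, minus strand), was at 9.35, 4.85 and 11.5 CPM at 6 h and 91.0, 166 and 142 CPM at 24 h (log2 change 3.99, SE 0.24, adjusted p = 1.4e-11), without overlap, and Ccne2 followed (2.46 to 21.5 CPM, log2 3.17 ± 0.27). The activating E2F factors rose with them: E2f1 from 12.2, 6.65 and 10.3 CPM to 87.6, 105 and 108 CPM (log2 3.42 ± 0.19), E2f2 (20.0 to 91.8 CPM, log2 2.34 ± 0.24) and E2f3 (19.0 to 90.0 CPM, log2 2.26 ± 0.12), as did the repressors E2f7 (1.83 to 14.1 CPM, log2 3.06 ± 0.35) and E2f8 (13.2 to 81.1 CPM, log2 2.77 ± 0.26). Cyclin D2, the abundant D cyclin, stood at 704, 1237 and 1034 CPM at 6 h and 960, 1121 and 926 CPM at 24 h and was not called (log2 change 0.05, SE 0.14, adjusted p = 0.753), whereas cyclin D3 went from 195, 144 and 184 CPM to 410, 423 and 462 CPM (log2 1.32 ± 0.10). Its kinase Cdk4 (304 to 669 CPM, log2 1.15 ± 0.10) and the kinase of cyclin E, Cdk2 (58.6 to 176 CPM, log2 1.60 ± 0.11), were higher. The genes called lower were the pocket proteins Rbl2 (103 to 47.5 CPM, log2 -1.12 ± 0.10) and Rb1 (41.2 to 33.9 CPM, log2 -0.28 ± 0.10), which hold E2F targets silent, and the CDK inhibitors Cdkn1a (50.5 to 27.8 CPM, log2 -0.96 ± 0.15), Cdkn1c (2.93 to 0.919 CPM, log2 -1.67 ± 0.30) and Cdkn2b (1.54 to 0.749 CPM, log2 -0.98 ± 0.39). The quiescence list added Cdkn1b, encoding p27 (154 to 51.0 CPM, log2 -1.59 ± 0.12).

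Histone genes that are transcribed in S phase had a median fitted change of 4.05, with 30 of 37 tested genes higher and 4 lower. Another 29 of the 66 listed genes were not tested because of low counts. Members at or under the floor at 6 h passed this filter only through other libraries, such as those of 24 h. The share called higher is therefore partly set by the filter. These messages end in a stem-loop and not in a poly(A) tail, so a library made from poly(A) RNA holds little of them, and near-identical copies make single members uncertain. Hist1h3c stood at 0.0439, 0.0924 and 0 CPM at 6 h and 5.18, 4.53 and 6.25 CPM at 24 h (log2 6.68 ± 0.63), close to or under the floor at 6 h, and Hist1h2bj at 0.176, 0.0462 and 0.289 CPM at 6 h and 9.92, 9.46 and 9.33 CPM at 24 h (log2 5.79 ± 0.43). Fitted changes of members with so few counts at 6 h are not bounds on the fold, and the median of 4.05 rests on such members. With a constant added to each CPM, the medians within mice 1, 2 and 4 were 1.53, 1.69 and 1.79 on the log2 scale, below those of mitosis genes (1.88, 3.23 and 2.42) and replication genes (1.97, 2.52 and 2.21) in each mouse. The summed level of the histone genes was 28.6, 18.9 and 26.2 CPM at 6 h and 84.9, 71.7 and 92.4 CPM at 24 h. The members that were lower, Hist1h2bc (2.45 to 1.03 CPM, log2 -1.20 ± 0.28), Hist1h1c (9.28 to 5.23 CPM, log2 -0.83 ± 0.19), Hist2h2be (4.39 to 2.29 CPM, log2 -0.94 ± 0.27) and Hist3h2a (2.63 to 0.916 CPM, log2 -1.50 ± 0.30), include genes that also give polyadenylated messages in differentiated cells. When only genes with a mean of at least 1 CPM were tested, 9 histone genes remained, 5 of them higher and 4 lower.

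**Figure D3:**
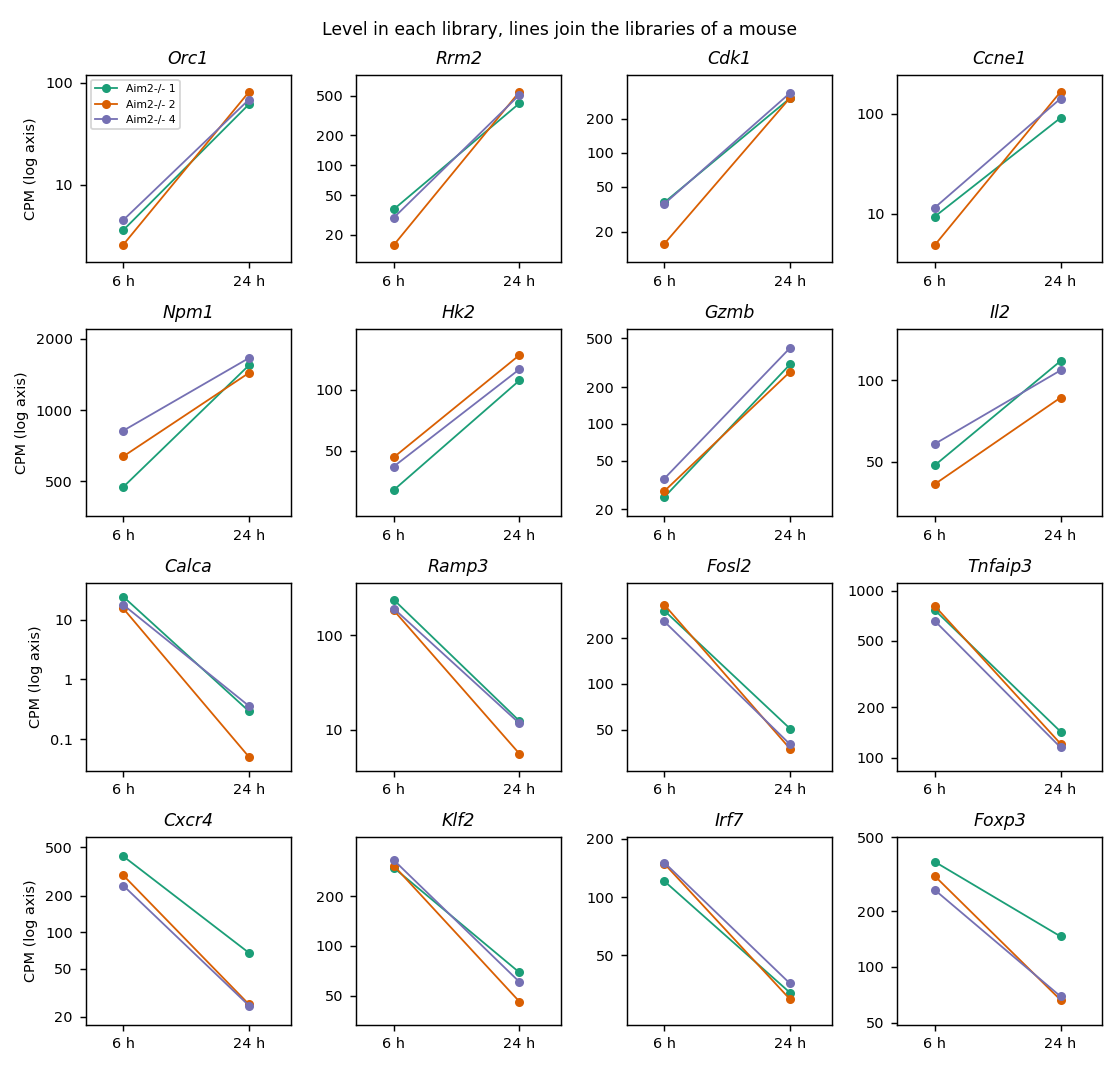
Levels of 16 genes in the 6 Aim2-/- libraries, in CPM on a log axis, at 6 h and 24 h; a line joins the libraries of a mouse. Orc1, Rrm2, Cdk1, Ccne1, Npm1, Hk2, Gzmb and Il2 are higher at 24 h in all 3 mice, and Calca, Ramp3, Fosl2, Tnfaip3, Cxcr4, Klf2, Irf7 and Foxp3 lower in all 3, with no overlap between the times.

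Over all protein-coding genes called with at least 10 CPM at one time and no overlap, the 8 largest rises were of Ajuba, Orc1, Rrm2, Pclaf, Dapl1, Ccne1, Exo1 and Aunip. Ajuba, a LIM protein at cell contacts and centrosomes, was at 2.06, 2.36 and 1.01 CPM at 6 h and 33.0, 37.3 and 43.9 CPM at 24 h (log2 change 4.42, SE 0.29, adjusted p = 6.3e-11). Pclaf, the PCNA-associated factor, was at 16.1, 5.82 and 9.71 CPM at 6 h and 193, 174 and 191 CPM at 24 h (log2 change 4.23, SE 0.23, adjusted p = 4.7e-12), and Exo1, an exonuclease of mismatch repair, at 5.79, 3.88 and 6.20 CPM at 6 h and 64.7, 97.4 and 82.8 CPM at 24 h (log2 change 3.97, SE 0.22, adjusted p = 5.1e-12). Dapl1 (ENSMUSG00000026989, chr2:59484653-59505020, plus strand) differed from these in kind, being listed with the naive state genes. It was at 1.14, 3.88 and 3.13 CPM at 6 h and 28.7, 62.9 and 51.8 CPM at 24 h (log2 change 4.18, SE 0.16, adjusted p = 2.8e-14), after 3.24, 8.17 and 5.36 CPM before stimulation and 1.63, 4.40 and 2.21 CPM at 3 h. Aunip, which binds Aurora A and takes part in DNA repair, went from 3.73, 1.76 and 2.98 CPM to 36.7, 39.0 and 47.7 CPM (log2 3.91 ± 0.27).

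By the same limits the 8 largest falls were of Calca, Asic3, Ramp3, Areg, Ret, Fosb, Cxcr4 and Cables1, of which Fosb and Cxcr4 are described with their lists. Calca (ENSMUSG00000030669, chr7:114631478-114636357, minus strand), which encodes calcitonin and the neuropeptide CGRP, was at 24.4, 15.5 and 17.8 CPM at 6 h and 0.293, 0.0503 and 0.359 CPM at 24 h (log2 change -6.35, SE 0.23, adjusted p = 2.1e-14), and its receptor component Ramp3 (ENSMUSG00000041046, chr11:6658521-6677475, plus strand) at 237, 183 and 191 CPM at 6 h and 12.4, 5.59 and 11.7 CPM at 24 h (log2 change -4.39, SE 0.18, adjusted p = 8.7e-14). Mouse 2 was the lowest at 24 h for both, and for Calca at or under the floor of 3 counts. Asic3, a proton-gated channel, was at 18.3, 3.79 and 9.57 CPM at 6 h and 0.440, 0.101 and 0.308 CPM at 24 h (log2 change -5.16, SE 0.34, adjusted p = 6.6e-11). Areg, encoding the growth factor amphiregulin, stood at 16.2, 15.2 and 18.9 CPM at 6 h and 2.30, 0.805 and 1.03 CPM at 24 h (log2 change -3.62, SE 0.22, adjusted p = 2.2e-11), Ret, a receptor kinase, at 13.2, 20.3 and 10.5 CPM at 6 h and 1.42, 2.47 and 0.513 CPM at 24 h (log2 change -3.35, SE 0.19, adjusted p = 9.4e-12), and Cables1, a linker of CDKs and ABL kinase, at 12.5, 10.4 and 12.4 CPM at 6 h and 1.61, 1.61 and 1.13 CPM at 24 h (log2 change -3.01, SE 0.20, adjusted p = 5.0e-11). None of these 6 genes overlapped between the times.

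Immediate early transcription factors were mostly lower at 24 h. Of 17 tested, 14 were called lower, 1 higher and 2 not called, with a median of -1.16. Fosb was at 18.8, 17.1 and 14.0 CPM at 6 h and 2.49, 1.01 and 1.74 CPM at 24 h (log2 change -3.25, SE 0.21, adjusted p = 5.5e-11), Fosl2 at 303, 331 and 257 CPM at 6 h and 50.7, 37.4 and 40.0 CPM at 24 h (log2 change -2.80, SE 0.12, adjusted p = 1.1e-13) and Nr4a1, the receptor Nur77 whose transcription follows T cell receptor signalling, at 984, 1211 and 1245 CPM at 6 h and 215, 193 and 204 CPM at 24 h (log2 change -2.48, SE 0.17, adjusted p = 7.8e-11). Within the EGR family Egr1 (345 to 142 CPM, log2 -1.27 ± 0.15) changed more than Egr2 (332 to 195 CPM, log2 -0.75 ± 0.16) and Egr3 (117 to 62.6 CPM, log2 -0.89 ± 0.20). Jund was the only member called higher (305 to 419 CPM, log2 0.46 ± 0.12), while Fosl1 (19.8 to 20.8 CPM, log2 0.11 ± 0.24, adjusted p = 0.712) and Atf3 (89.8 to 110 CPM, log2 0.30 ± 0.17, adjusted p = 0.130) were not called. The NF-kB list fell alongside, 11 of 12 members being lower and none higher (median -0.77). Tnfaip3 (ENSMUSG00000019850, chr10:19000910-19015657, minus strand), encoding the deubiquitinase A20 that ends NF-kB signalling, went from 764, 808 and 658 CPM to 143, 121 and 115 CPM (log2 change -2.56, SE 0.08, adjusted p = 1.3e-14). The inhibitors Nfkbiz (143 to 44.5 CPM, log2 -1.71 ± 0.13) and Nfkbia (501 to 227 CPM, log2 -1.15 ± 0.08) fell more than the subunits Rela (304 to 172 CPM, log2 -0.82 ± 0.08), Rel (232 to 133 CPM, log2 -0.80 ± 0.10) and Nfkb1 (1034 to 740 CPM, log2 -0.48 ± 0.09), as fitted changes without a test between them.

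Of 11 genes of the MYC network 4 were higher (36.4%) and 5 lower (45.5%), not far from the shares of all genes, with a median of -0.05. Myc was at 356, 537 and 545 CPM at 6 h and 516, 623 and 609 CPM at 24 h (log2 change 0.30, SE 0.13, adjusted p = 0.0434), overlapping between the times, and its partner Max at 168, 169 and 197 CPM at 6 h and 235, 243 and 262 CPM at 24 h (log2 change 0.47, SE 0.07, adjusted p = 7.0e-06). The antagonists Mxd4 (76.2 to 22.5 CPM, log2 -1.75 ± 0.12), Mxd1 (148 to 68.0 CPM, log2 -1.12 ± 0.11), Mxi1 (41.0 to 21.2 CPM, log2 -0.95 ± 0.09) and Mnt (84.8 to 44.1 CPM, log2 -0.95 ± 0.07) were lower. Mxd3, which is expressed in S phase, was higher (3.12 to 19.4 CPM, log2 2.72 ± 0.31).

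Genes of cell mass continued to rise. For ribosome biogenesis and RNA polymerase I 46 of 50 were higher and none lower (median 0.63), with a summed level of 8282, 12407 and 12312 CPM at 6 h and 17577, 22200 and 19977 CPM at 24 h; mouse 1 was the lowest at both times. Npm1, the nucleolar chaperone nucleophosmin, was at 473, 637 and 818 CPM at 6 h and 1544, 1434 and 1657 CPM at 24 h (log2 change 1.30, SE 0.10, adjusted p = 9.5e-10), and Ncl, nucleolin, the most abundant of the list, at 1703, 2719 and 2520 CPM at 6 h and 4746, 6111 and 5480 CPM at 24 h (log2 change 1.25, SE 0.11, adjusted p = 2.8e-09). Of 39 translation initiation factors 33 were higher (median 0.64), led by the eIF2B subunit Eif2b1 (52.1 to 156 CPM, log2 1.59 ± 0.08), and Eif4g3 alone was lower (325 to 273 CPM, log2 -0.25 ± 0.07). Cytosolic ribosomal protein genes moved less, 61 of 81 higher and none lower with a median of 0.51, and are uncertain singly because of their many pseudogenes. Mitochondrial ribosomal protein genes had 71 of 76 higher and none lower (median 0.89), for example Mrpl18 (49.1 to 155 CPM, log2 1.66 ± 0.08). All aminoacyl-tRNA synthetases tested were higher except tryptophanyl-tRNA synthetase, Wars (261 to 207 CPM, log2 -0.34 ± 0.08), which interferon induces: 19 of 20 rose (median 0.72), from Mars (107 to 284 CPM, log2 1.39 ± 0.10) to Cars (104 to 145 CPM, log2 0.48 ± 0.09).

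Metabolic lists differed in how uniform they were. Serine, one-carbon and nucleotide synthesis had 24 of 29 higher and 3 lower, with a median of 1.16. Phgdh, the entry enzyme of serine synthesis, was at 23.0, 32.1 and 32.9 CPM at 6 h and 103, 140 and 135 CPM at 24 h (log2 change 2.11, SE 0.09, adjusted p = 2.1e-13), Mthfd2, the mitochondrial folate enzyme, at 90.3, 113 and 114 CPM at 6 h and 258, 346 and 304 CPM at 24 h (log2 change 1.52, SE 0.09, adjusted p = 2.5e-11), and Cad, which starts pyrimidine synthesis, at 134, 231 and 193 CPM at 6 h and 335, 652 and 449 CPM at 24 h (log2 change 1.35, SE 0.14, adjusted p = 2.3e-08). Adssl1, an isozyme of muscle, was lower (10.4 to 2.46 CPM, log2 -2.12 ± 0.21). Glucose uptake and glycolysis had 18 of 24 higher and 2 lower (median 0.83): Hk2, the inducible hexokinase, was at 32.0, 46.4 and 41.8 CPM at 6 h and 111, 148 and 126 CPM at 24 h (log2 change 1.68, SE 0.16, adjusted p = 9.0e-09) and Ldha, lactate dehydrogenase, at 555, 768 and 737 CPM at 6 h and 1475, 1864 and 1798 CPM at 24 h (log2 change 1.32, SE 0.10, adjusted p = 5.6e-10). Slc2a1, the glucose transporter GLUT1, rose less (72.2 to 100 CPM, log2 0.47 ± 0.07), and the lactate exporter Slc16a3 (25.9 to 14.1 CPM, log2 -0.84 ± 0.16) and Pfkfb4 (11.8 to 6.53 CPM, log2 -0.85 ± 0.13) were lower. Gapdh, at a mean of 8.07 CPM at 6 h, has many pseudogenes and is uncertain.

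Most nuclear genes of mitochondrial metabolism were higher. Of 25 TCA cycle enzymes 24 were higher (median 0.67), such as citrate synthase, Cs (260 to 502 CPM, log2 0.95 ± 0.07), and Idh2 (32.8 to 91.4 CPM, log2 1.48 ± 0.10), and Idh1, the cytosolic form, was not called (11.8 to 9.34 CPM, log2 -0.36 ± 0.17, adjusted p = 0.0689). Of 79 nuclear OXPHOS genes 68 were higher and 2 lower, with a median of 0.62. The mitochondrial genome itself gave 7 of 13 listed genes with enough counts to test, of which none was higher and 3 were lower (42.9%, against 32.4% of all genes): mt-Cytb (6206 to 4543 CPM, log2 -0.47 ± 0.14), mt-Nd4 (2142 to 1589 CPM, log2 -0.45 ± 0.16) and mt-Nd5 (2454 to 1888 CPM, log2 -0.39 ± 0.16). Not tested were mt-Atp6, mt-Atp8, mt-Co2, mt-Co3, mt-Nd3 and mt-Nd4l. Why these had few counts was not tested, and it need not be low expression. The summed level of the 7 tested genes was 23203, 15934 and 25780 CPM at 6 h and 24675, 11623 and 19210 CPM at 24 h, overlapping, and mouse 1 was slightly higher at 24 h. No mitochondrially encoded gene was called when mouse 2 or mouse 4 was left out. Sterol and fatty acid synthesis had 22 of 31 higher and 4 lower (median 0.52), the latter including the cholesterol exporters Abca1 (4.85 to 1.17 CPM, log2 -2.04 ± 0.23) and Abcg1 (36.1 to 15.3 CPM, log2 -1.24 ± 0.12). In the polyamine list, 9 of 14 higher and 4 lower, Srm, spermidine synthase, was higher (217 to 514 CPM, log2 1.26 ± 0.16) and Odc1, the enzyme before it, lower (483 to 348 CPM, log2 -0.47 ± 0.10), as were the catabolic Smox (50.4 to 16.6 CPM, log2 -1.59 ± 0.15) and Sat1 (87.5 to 54.5 CPM, log2 -0.69 ± 0.08).

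Protein folding and turnover genes rose with few exceptions. Among chaperones 24 of 31 were higher and 4 lower (median 0.63). Hspd1, the mitochondrial chaperonin, was at 148, 236 and 222 CPM at 6 h and 556, 754 and 681 CPM at 24 h (log2 change 1.73, SE 0.13, adjusted p = 3.3e-10), while the heat shock genes Hspa1a (6.60 to 0.986 CPM, log2 -2.72 ± 0.23) and Hspa1b (8.11 to 1.25 CPM, log2 -2.71 ± 0.23), near-identical copies of each other, were lower, and so were the sensor of the unfolded protein response Ern1 (36.9 to 11.2 CPM, log2 -1.71 ± 0.11) and its target Xbp1 (279 to 202 CPM, log2 -0.47 ± 0.08). Of 38 proteasome subunits 34 were higher (median 0.67) and 1, the immunoproteasome subunit Psmb10, lower (223 to 182 CPM, log2 -0.30 ± 0.11). The antioxidant list had 15 of 24 higher and 3 lower (median 0.46), with thioredoxin, Txn1 (239 to 538 CPM, log2 1.17 ± 0.10), and its reductase Txnrd1 (140 to 307 CPM, log2 1.13 ± 0.11) higher and sulfiredoxin, Srxn1, lower (55.0 to 18.2 CPM, log2 -1.62 ± 0.14). Lists with no common direction were ATF4 and stress response genes, 5 higher and 6 lower of 18 (median -0.22), in which Ddit4, an inhibitor of mTORC1, fell (49.0 to 16.9 CPM, log2 -1.53 ± 0.15), amino acid transporters, 3 and 4 of 17 (median -0.06), in which Slc7a5 rose (181 to 310 CPM, log2 0.78 ± 0.15), and lysosome genes, 7 and 14 of 30 (median -0.23).

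Cytokine genes went both ways, 9 of 23 higher, 10 lower and 4 not called, with a median of -0.11; without the block only 3 were called lower. Il2, the T cell growth factor, was at 48.6, 41.4 and 58.3 CPM at 6 h and 118, 86.4 and 109 CPM at 24 h (log2 change 1.09, SE 0.16, adjusted p = 5.6e-06), each mouse being higher at 24 h. Lta, lymphotoxin alpha, was at 89.4, 129 and 141 CPM at 6 h and 387, 204 and 275 CPM at 24 h (log2 change 1.29, SE 0.19, adjusted p = 4.6e-06) and Il3 at 10.7, 8.17 and 9.04 CPM at 6 h and 30.8, 18.5 and 21.9 CPM at 24 h (log2 change 1.34, SE 0.33, adjusted p = 0.00167). Ifng, the Th1 cytokine, overlapped between the times at 135, 119 and 238 CPM at 6 h and 434, 169 and 345 CPM at 24 h (log2 change 0.94, SE 0.22, adjusted p = 8.8e-04). The Th2 cytokine Il4 went the other way, at 111, 59.2 and 77.0 CPM at 6 h and 36.9, 9.36 and 16.3 CPM at 24 h (log2 change -2.10, SE 0.19, adjusted p = 5.8e-09), with Il5 (19.6 to 6.36 CPM, log2 -1.49 ± 0.30) and Il13 (55.7 to 33.4 CPM, log2 -0.82 ± 0.27). Tnf was at 243, 233 and 237 CPM at 6 h and 178, 127 and 131 CPM at 24 h (log2 change -0.72, SE 0.15, adjusted p = 2.2e-04), and Il10 at 29.8, 19.8 and 26.0 CPM at 6 h and 41.4, 13.7 and 18.9 CPM at 24 h was not called (adjusted p = 0.649). Il24 had no count in the 3 libraries of 6 h and a mean of 3.73 CPM (SD 2.00, n = 3) at 24 h. Il9 went from 0.152 CPM, at the floor, to 4.08 CPM (SD 2.73).

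Chemokines had 5 of 12 higher and 5 lower. Ccl5 was at 136, 126 and 153 CPM at 6 h and 24.7, 12.5 and 15.4 CPM at 24 h (log2 change -2.99, SE 0.16, adjusted p = 4.7e-12) and Cxcl10, an interferon target, at 109, 111 and 125 CPM at 6 h and 36.1, 7.30 and 16.7 CPM at 24 h (log2 change -2.66, SE 0.26, adjusted p = 1.4e-08), whereas Ccl22, a ligand of CCR4, rose (37.5 to 134 CPM, log2 1.80 ± 0.18). The calls in this list were unstable, 2 higher without mouse 1 and 2 lower without mouse 4. Their receptors were steadier, with 11 of 15 lower, 1 higher and a median of -1.65. Cxcr4 (ENSMUSG00000045382, chr1:128588199-128592293, minus strand), the receptor of CXCL12, was at 422, 294 and 242 CPM at 6 h and 67.5, 25.4 and 24.8 CPM at 24 h (log2 change -3.10, SE 0.20, adjusted p = 5.5e-11), with mouse 1 the highest at both times. Ccr2 (31.9 to 5.19 CPM, log2 -2.72 ± 0.26), Cxcr6 (118 to 22.3 CPM, log2 -2.46 ± 0.13) and Cxcr3 (137 to 43.9 CPM, log2 -1.65 ± 0.12), all receptors of effector or memory cells, were lower, Ccr7, the lymph node homing receptor, was not called (318 to 275 CPM, log2 -0.21 ± 0.09, adjusted p = 0.0554), and Ccr4 was the one called higher (109 to 171 CPM, log2 0.65 ± 0.16).

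Cytokine receptors were mostly lower, 17 of 22, with 2 higher and a median of -0.69; without the block 11 were called lower. Ifngr1, the ligand-binding chain of the interferon gamma receptor, was at 560, 577 and 502 CPM at 6 h and 137, 123 and 127 CPM at 24 h (log2 change -2.08, SE 0.09, adjusted p = 3.1e-13), Il7r, the receptor of a survival cytokine of resting T cells, at 156, 191 and 127 CPM at 6 h and 55.9, 42.4 and 38.1 CPM at 24 h (log2 change -1.78, SE 0.15, adjusted p = 1.7e-09), and Il18r1 at 96.0, 83.7 and 73.6 CPM at 6 h and 26.9, 13.8 and 14.0 CPM at 24 h (log2 change -2.23, SE 0.14, adjusted p = 2.3e-11). The receptors called higher were Il2ra, the CD25 chain, at 547, 665 and 684 CPM at 6 h and 810, 790 and 764 CPM at 24 h (log2 change 0.32, SE 0.13, adjusted p = 0.0333), and Il12rb1, a chain shared by the IL-12 and IL-23 receptors, at 64.0, 89.1 and 83.5 CPM at 6 h and 249, 338 and 311 CPM at 24 h (log2 change 1.93, SE 0.20, adjusted p = 4.8e-08). Downstream, 11 of 18 STAT, SOCS and PIM genes were lower and 2 higher (median -0.55). Stat4 (170 to 60.3 CPM, log2 -1.49 ± 0.10), the IL-12 signal, and the feedback inhibitor Socs3 (215 to 86.0 CPM, log2 -1.31 ± 0.13) fell, and the kinases diverged, Pim1 being lower (589 to 292 CPM, log2 -1.01 ± 0.07) and Pim2 higher (102 to 270 CPM, log2 1.41 ± 0.10).

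Costimulatory and inhibitory surface genes followed with exceptions of their own. TNF superfamily ligands had 6 of 10 lower and none higher (median -0.73), with Tnfsf8, the CD30 ligand (555 to 176 CPM, log2 -1.66 ± 0.19), Ltb (510 to 179 CPM, log2 -1.50 ± 0.12) and Cd40lg, the signal to B cells (126 to 55.9 CPM, log2 -1.16 ± 0.16), among them. Of 12 TNF receptors 8 were lower (median -0.98): Tnfrsf9, encoding 4-1BB, was at 1086, 1125 and 1079 CPM at 6 h and 402, 259 and 338 CPM at 24 h (log2 change -1.75, SE 0.12, adjusted p = 8.5e-11), and Tnfrsf4, encoding OX40, was the one called higher (651 to 843 CPM, log2 0.37 ± 0.10). Inhibitory receptors and ligands had 7 of 12 lower and 4 higher (median -0.68). Vsir, encoding VISTA, was at 368, 518 and 442 CPM at 6 h and 105, 108 and 92.1 CPM at 24 h (log2 change -2.11, SE 0.15, adjusted p = 1.7e-10) and Pdcd1, encoding PD-1, at 473, 425 and 317 CPM at 6 h and 197, 177 and 152 CPM at 24 h (log2 change -1.20, SE 0.10, adjusted p = 1.6e-09), whereas Lag3 was at 85.6, 66.2 and 51.2 CPM at 6 h and 244, 232 and 278 CPM at 24 h (log2 change 1.94, SE 0.27, adjusted p = 2.9e-06) and Cd200 rose too (131 to 363 CPM, log2 1.48 ± 0.12). In the T cell receptor list 12 of 19 were lower and none higher (median -0.39), for example the constant region Trac (1157 to 700 CPM, log2 -0.72 ± 0.10), the kinase Fyn (586 to 267 CPM, log2 -1.13 ± 0.08) and Icos (435 to 212 CPM, log2 -1.04 ± 0.09), while the adaptor Lat and the kinase Lck were not called.

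T helper transcription factors had 5 of 19 higher and 11 lower, with a median of -0.62. Foxp3 (ENSMUSG00000039521, chrX:7573644-7595245, plus strand), the factor of regulatory T cells, was at 369, 309 and 260 CPM at 6 h and 146, 66.3 and 69.3 CPM at 24 h (log2 change -1.79, SE 0.15, adjusted p = 1.3e-09); mouse 1 was the highest at both times and the times did not overlap. Bcl6, the factor of follicular helper cells, was at 122, 107 and 98.8 CPM at 6 h and 26.6, 18.6 and 17.1 CPM at 24 h (log2 change -2.41, SE 0.12, adjusted p = 8.2e-13), and Rora at 78.3, 60.3 and 49.9 CPM at 6 h and 14.6, 7.35 and 6.92 CPM at 24 h (log2 change -2.73, SE 0.13, adjusted p = 9.4e-13). Tbx21, encoding T-bet of Th1 cells, was at 91.8, 111 and 124 CPM at 6 h and 180, 221 and 208 CPM at 24 h (log2 change 0.91, SE 0.19, adjusted p = 3.6e-04), Gata3, the Th2 factor, was not called at 183, 157 and 172 CPM at 6 h and 175, 160 and 177 CPM at 24 h (log2 change 0.00, SE 0.08, adjusted p = 0.979), and Irf8 rose (214 to 566 CPM, log2 1.41 ± 0.22), as did Batf3 (1.27 to 7.36 CPM, log2 2.59 ± 0.27). Of the 14 genes the study lists as a Treg signature, 8 were lower and 3 higher (median -0.99): the lower ones include Klrg1 (9.16 to 1.68 CPM, log2 -2.53 ± 0.26), Ikzf2, encoding Helios (155 to 65.0 CPM, log2 -1.33 ± 0.13), Nrp1 (60.7 to 22.0 CPM, log2 -1.47 ± 0.18) and Ctla4 (302 to 179 CPM, log2 -0.79 ± 0.12), and the higher ones were Il2ra, Tnfrsf4 and Gzmb.

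Among cytotoxic granule genes granzyme B changed most. Gzmb (ENSMUSG00000015437, chr14:56258838-56262260, minus strand) was at 25.2, 28.2 and 35.7 CPM at 6 h and 306, 266 and 417 CPM at 24 h (log2 change 3.46, SE 0.17, adjusted p = 1.6e-12), whereas Gzmk, of memory cells, was at 35.4, 52.9 and 34.5 CPM at 6 h and 8.06, 5.74 and 4.72 CPM at 24 h (log2 change -2.69, SE 0.19, adjusted p = 1.7e-10) and Prf1, perforin, was not called at 11.3, 17.1 and 15.7 CPM at 6 h and 14.5, 15.3 and 13.2 CPM at 24 h (adjusted p = 0.955). The list as a whole had 5 of 12 higher and 5 lower (median 0.04), Serpinb9, which inhibits granzyme B, being among the higher (68.6 to 122 CPM, log2 0.84 ± 0.11) and Srgn, the proteoglycan of granules, among the lower (1209 to 446 CPM, log2 -1.44 ± 0.10). In the BCL2 family 3 of 16 were higher and 8 lower (median -0.39). Bcl2l1, encoding the survival protein BCL-XL, was at 143, 122 and 155 CPM at 6 h and 348, 338 and 360 CPM at 24 h (log2 change 1.33, SE 0.09, adjusted p = 1.3e-10), and the BH3-only killers Bcl2l11 (160 to 61.7 CPM, log2 -1.37 ± 0.07), Pmaip1 (log2 -1.81 ± 0.12) and Bmf (5.85 to 1.65 CPM, log2 -1.92 ± 0.22) were lower along with Bcl2 (221 to 122 CPM, log2 -0.84 ± 0.13). MHC class II genes, which antigen-presenting cells express most, had 3 of 10 higher and 2 lower (median -0.02), and none was called higher without the block.

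Genes of the quiescent and naive state were lower, 20 of 24 with 1 higher, the Dapl1 described above, and a median of -1.26. Klf2, which keeps T cells quiescent and in circulation, was at 296, 305 and 329 CPM at 6 h and 69.2, 46.2 and 60.7 CPM at 24 h (log2 change -2.40, SE 0.16, adjusted p = 8.0e-11), and its target S1pr1, the receptor for leaving lymphoid organs, at 255, 292 and 209 CPM at 6 h and 70.6, 55.2 and 46.3 CPM at 24 h (log2 change -2.13, SE 0.14, adjusted p = 7.8e-11). Txnip, an inhibitor of glucose uptake, was at 395, 409 and 334 CPM at 6 h and 119, 98.8 and 96.3 CPM at 24 h (log2 change -1.85, SE 0.12, adjusted p = 3.5e-11). Btg1 (728 to 239 CPM, log2 -1.61 ± 0.12) and Btg2 (475 to 107 CPM, log2 -2.16 ± 0.11), which slow proliferation, fell as well. The factors of naive cells Tcf7 (765 to 615 CPM, log2 -0.32 ± 0.11), Bach2 (199 to 156 CPM, log2 -0.35 ± 0.12) and Foxo1 (158 to 107 CPM, log2 -0.56 ± 0.08) changed less, and Lef1 was not called (176 to 193 CPM, log2 0.15 ± 0.10, adjusted p = 0.198). Of 16 integrin subunits 10 were lower and none higher (median -0.58), among them Itga4, part of VLA-4 (246 to 75.1 CPM, log2 -1.72 ± 0.13), while both chains of LFA-1, Itgal (536 to 547 CPM, log2 0.02 ± 0.09) and Itgb2 (338 to 347 CPM, log2 0.04 ± 0.09), were not called.

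Interferon-stimulated genes fell, 26 of 28 being lower and none higher, with a median of -1.50. Their summed level was 1768, 2120 and 2016 CPM at 6 h and 914, 831 and 904 CPM at 24 h, and the times did not overlap. Irf7, the factor that amplifies interferon production, was at 121, 149 and 151 CPM at 6 h and 32.0, 29.6 and 35.7 CPM at 24 h (log2 change -2.10, SE 0.13, adjusted p = 1.7e-11), Oas2, a sensor of double-stranded RNA, at 55.7, 79.5 and 74.7 CPM at 6 h and 9.43, 15.0 and 14.3 CPM at 24 h (log2 change -2.45, SE 0.22, adjusted p = 5.4e-09), and Ifit1 at 23.2, 35.9 and 32.1 CPM at 6 h and 9.14, 10.6 and 10.9 CPM at 24 h (log2 change -1.56, SE 0.22, adjusted p = 2.4e-06). Ifit2 (37.5 to 32.7 CPM, log2 -0.19 ± 0.13, adjusted p = 0.184) and Bst2 (131 to 156 CPM, log2 0.26 ± 0.13, adjusted p = 0.0962) were not called. The interferon-inducible GTPases had 13 of 15 lower and none higher (median -1.03). Gbp7 was at 165, 200 and 172 CPM at 6 h and 67.2, 71.3 and 49.8 CPM at 24 h (log2 change -1.52, SE 0.14, adjusted p = 8.7e-09), and Gbp2, the most abundant guanylate-binding protein gene, went from 1402 to 658 CPM (log2 -1.09 ± 0.18). Members of this family are similar in sequence.

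**Figure D4:**
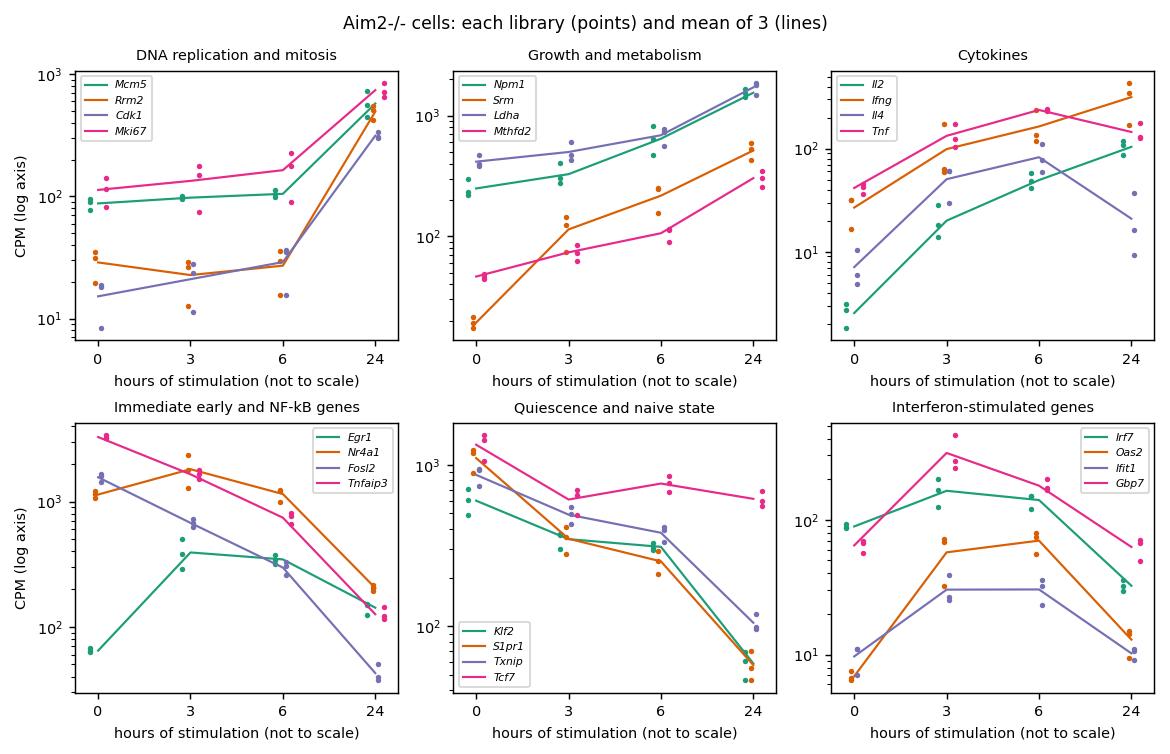
Levels of 24 genes in Aim2-/- cells before stimulation and at 3, 6 and 24 h, in CPM on a log axis (points, single libraries; lines, means of 3; the time axis is not to scale). Replication and mitosis genes rise mainly between 6 h and 24 h, interferon-stimulated genes are high at 3 and 6 h and lower at 24 h, and Fosl2 and Tnfaip3 fall over the whole course.

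The earlier times place these changes, as levels without a test. The summed replication genes stood at 2825 to 3026 CPM before stimulation, above the 2393 to 2662 CPM of 3 h, and the 2488 to 2828 CPM of 6 h overlapped both, all far below the 10463 CPM or more of 24 h. The interferon-stimulated genes summed to 929 to 1002 CPM before stimulation, so the 831 to 914 CPM of 24 h lay just below the level of unstimulated cells after 1690 to 2387 CPM at 3 h. Il4 was at 10.5, 4.82 and 5.90 CPM before stimulation and 61.3, 29.9 and 60.2 CPM at 3 h, so its 24 h level lay between those of resting and 3 h cells in all 3 mice. Ribosome biogenesis genes climbed at every step, from 4843 to 5170 CPM before stimulation over 6286 to 9167 CPM at 3 h. The immediate early list summed to 6678 to 7663 CPM before stimulation and 4928 to 7512 CPM at 3 h, with Fosl2 at 1657, 1606 and 1422 CPM and Tnfaip3 at 3384, 3202 and 3232 CPM before stimulation, and Egr1 at 63.5, 62.5 and 67.5 CPM.

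The same interval was compared in cells labelled WT, which were cultured in the same way and share no library with the Aim2-/- comparison. There 10011 genes were called (65.3%), and 8906 (56.9% of 15656) without WT 1. Of the genes called in Aim2-/- cells 86.5% were also called in WT cells with the same sign, and 83.3% the other way round; 10 of 8347 genes called in both went opposite ways. Without WT 1 these shares were 79.1% and 86.1%, with 15 of 7679 opposite. The log2 changes correlated with r = 0.870 and rho = 0.889 over the 15325 genes, a description only since genes are no replicates, and their SD was 1.15 in Aim2-/- and 1.34 in WT cells. Without WT 1 r was 0.823 and rho 0.853, and the SD was 1.17 and 1.44. The genotype difference in the change, tested as an interaction, was called for 26 genes (0.170%), 10 (0.0653%) with a larger and 16 (0.104%) with a smaller value in Aim2-/- cells. Past a size of 1 on the log2 scale there were 5 (0.0326%) and 8 (0.0522%), while 2237 (14.6%) had an unadjusted p under 0.05. This count depends on single mice. It was 172 without WT 1, 325 without Aim2-/- 2, and between 1 and 2 without any other mouse, and without the block it was 0.

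**Figure D5:**
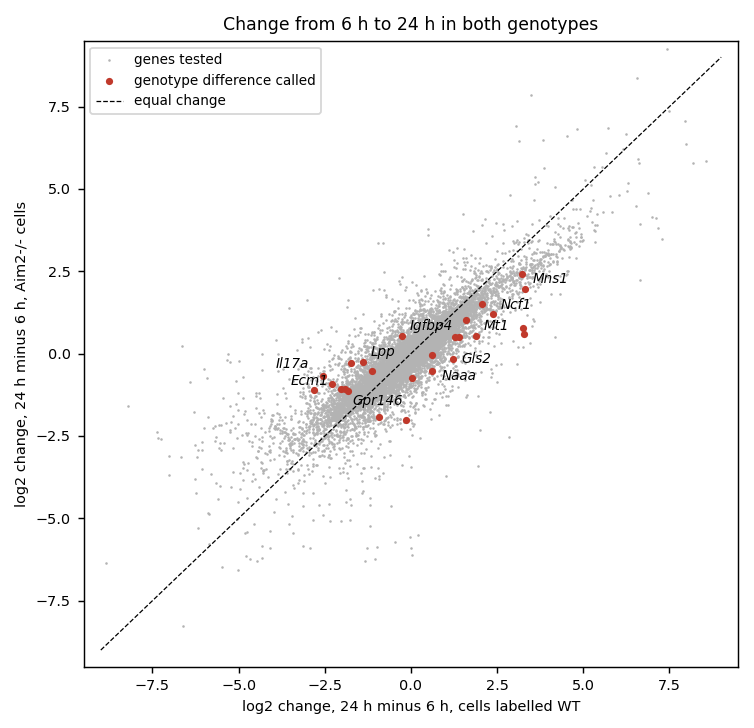
Each point is 1 of 15325 genes, with its log2 change from 6 h to 24 h in cells labelled WT (x axis) and in Aim2-/- cells (y axis); the dashed line marks equal change. Red points are the 26 genes with a called genotype difference, and the 10 named ones are described in the text.

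All 43 mitosis genes had a smaller log2 change in Aim2-/- cells, with a median difference of -1.11 (medians 2.68 in Aim2-/-, 3.60 in WT and 3.91 in WT without WT 1). Of the 43, 1 was called, 18 without WT 1 and 35 without Aim2-/- 2, and none when Aim2-/- 1, Aim2-/- 4, WT 3 or WT 4 was left out, when the block was dropped, with only the 6 h and 24 h libraries or by limma-voom. With all mice, DESeq2 called 5 of these genes and the fit with no filter on low counts 37. RLE size factors and a mean of at least 1 CPM gave none. In summed level the Aim2-/- libraries of 6 h held 1533, 861 and 1283 CPM and the WT libraries 984, 589 and 624 CPM. At 24 h they held 5401, 6633 and 6111 CPM and 6607, 7069 and 6119 CPM, which overlap. The 6 h ranges overlap as well, in that Aim2-/- 2 lay below WT 1. Before stimulation the same genes summed to 1183, 941 and 1134 CPM in Aim2-/- and to 732 to 1000 CPM in WT cells. Markers of other cells differed alongside at 6 h: the erythroid list summed to 485, 21.6 and 221 CPM in Aim2-/- and 13.6, 64.0 and 7.59 CPM in WT cells, the neutrophil list to 184, 47.2 and 53.5 against 15.8, 17.1 and 8.32 CPM, and the basophil and mast cell list to 145, 70.6 and 80.9 against at most 16.5 CPM. Among the Aim2-/- mice at 6 h, mouse 2 was the lowest for these 3 lists, for the myeloid, NK and platelet lists and for the mitosis genes. Mouse 4 was the lowest for the B cell, dendritic and CD8 T cell lists. The erythroid levels overlapped between the genotypes. The part of other cells in the genotype difference was not tested. For replication, 49 of 53 genes had a smaller change in Aim2-/- cells (median difference -0.53), 1 was called, 11 without WT 1 and 29 without Aim2-/- 2, and none when Aim2-/- 1, Aim2-/- 4, WT 3 or WT 4 was left out, when the block was dropped, with only the 6 h and 24 h libraries or by limma-voom. With all mice, DESeq2 called 11 replication genes and the fit with no filter on low counts 30. At 6 h the replication genes summed to 2488 to 2828 CPM in Aim2-/- and 2315 to 2597 CPM in WT cells, which overlap. At 24 h they summed to 10463 to 14380 CPM and 14436 to 16402 CPM, which do not overlap but nearly touch. The edges are Aim2-/- 2 and WT 1, and without WT 1 the lowest WT library held 14616 CPM.

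Of the 26 genes 10 are named. They have the largest differences in each direction among protein-coding genes with sufficient counts and a symbol that is not a clone or model name. All 10 lost their call when Aim2-/- 1, Aim2-/- 4, WT 3 or WT 4 was left out, without the block and with only the 6 h and 24 h libraries, and 7 lost it by limma-voom. Il17a, the Th17 cytokine, was at 20.1, 3.79 and 11.0 CPM at 6 h and 14.7, 1.91 and 6.51 CPM at 24 h in Aim2-/- cells and 18.2, 7.44 and 12.2 CPM at 6 h and 3.49, 1.49 and 1.54 CPM at 24 h in WT cells (difference of log2 changes 1.89, SE 0.37, adjusted p = 0.0452; without WT 1 2.01, adjusted p = 0.0405). Igfbp4, which binds insulin-like growth factors, was at 64.1, 74.4 and 63.1 CPM at 6 h and 110, 91.2 and 92.7 CPM at 24 h in Aim2-/- and 61.7, 87.5 and 85.1 CPM at 6 h and 67.5, 61.4 and 65.5 CPM at 24 h in WT cells (difference 0.80, SE 0.16, adjusted p = 0.0452; without WT 1 0.99, adjusted p = 0.0173). For Igfbp4 the fitted changes had opposite signs, 0.55 and -0.26. Among genes with a smaller value in Aim2-/- cells, Mt1, metallothionein, was at 27.1, 15.5 and 34.3 CPM at 6 h and 35.3, 26.8 and 47.1 CPM at 24 h and at 7.62, 4.82 and 4.87 CPM at 6 h and 21.5, 18.5 and 22.9 CPM at 24 h (difference -1.36, SE 0.24, adjusted p = 0.0364; without WT 1 -1.55, adjusted p = 0.0173), and Ncf1, the p47 subunit of the NADPH oxidase, at 39.5, 18.2 and 22.8 CPM at 6 h and 60.2, 55.5 and 58.7 CPM at 24 h and at 11.3, 9.29 and 9.68 CPM at 6 h and 52.4, 55.7 and 49.7 CPM at 24 h (difference -1.20, SE 0.20, adjusted p = 0.0364; without WT 1 -1.29, adjusted p = 0.0236). Phagocytes express Ncf1 strongly, and their part in its change was not tested. For Aim2 itself the difference was -0.54 (adjusted p = 0.337), and without WT 1 -0.82, adjusted p = 0.0484.

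In the metabolic lists the medians of Aim2-/- cells, WT cells and WT cells without WT 1 were 0.83, 0.86 and 0.93 for glycolysis, 0.62, 0.78 and 0.71 for nuclear OXPHOS genes, 0.67, 0.78 and 0.78 for TCA cycle enzymes and 1.16, 1.11 and 1.14 for one-carbon and nucleotide synthesis. No gene of these lists had a called difference in the main fit or without WT 1. DESeq2 called 1 in each list. Without Aim2-/- 2 there were 1, 1, 2 and 0 in the same order, and with no filter on low counts 2, 0, 0 and 1. In the main fit 72 of 79 nuclear OXPHOS genes (56 without WT 1) and 20 of 25 TCA cycle enzymes (21) had a smaller change in Aim2-/- cells. The glycolysis count was 13 of 24 and that of one-carbon and nucleotide synthesis 12 of 29. Median differences were small, -0.11 for OXPHOS genes and -0.12 for TCA cycle enzymes, beside -0.01 over all genes tested. Genes of a list are no replicates, so these counts are a description only. For Foxp3 the change was -1.79 in Aim2-/- and -2.26 in WT cells (difference 0.47, SE 0.20, adjusted p = 0.290; without WT 1 0.61, adjusted p = 0.190), with WT levels of 257, 189 and 253 CPM at 6 h and 62.9, 34.5 and 49.9 CPM at 24 h. The Treg signature had medians of -0.99, -0.87 and -0.89. Interferon-stimulated genes had -1.50, -1.98 and -2.04, 27 of 28 having a lower fitted change in WT cells (25 without WT 1). None had a called difference in the main fit or without WT 1. DESeq2 called 2, the fit without Aim2-/- 2 also 2, and that with no filter on low counts 11. A difference that misses the threshold with 3 mice a genotype does not show that the genotypes changed alike.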

How the data were processed

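Splenic CD4+ T cells of 6 mice were sequenced at 4 times of stimulation, 24 libraries in all, and the report uses the 6 Aim2-/- libraries of 6 h and 24 h, with WT libraries for the genotype difference. The libraries were made with a stranded mRNA kit, per the labels, and the cells enriched by immunomagnetic negative selection, per the general methods of the study. Reads were aligned by the authors with STAR (genome build GRCm38, Ensembl genes), and the deposited values are raw counts of 54446 gene identifiers; the strand setting and the treatment of reads with several matches are not given in the sources used here, so antisense, overlapping and near-identical genes are uncertain. DESeq2 and edgeR are named in the submitters' processing notes without a role. Symbols and positions were looked up in GENCODE for GRCm38, where 54409 identifiers were found, and promoter sequences from the RefSeq promoter table of GRCm38.p6.

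Counts were fitted with edgeR 4.0.16 in R 4.3.3 by the two-sided quasi-likelihood F test. All 24 libraries entered, with a term for each mouse as a block and 1 effect for each later time within each genotype. Sizes were scaled by TMM, and low genes removed by filterByExpr at a minimum count of 10. This filter kept 15325 of the 31367 genes with a count. Groups that were not compared enter the fit so that all libraries share 1 estimate of the spread, which left 12 residual degrees of freedom and a biological coefficient of variation of 9.78%. Benjamini-Hochberg adjustment was made over all genes tested within each comparison, with a threshold of 0.05. The 6 libraries compared held 19715161 to 21018910 counts. Folds against 0 are not given, and the floor of 3 counts covers counting error only.

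The labels tie each library to a numbered mouse that gave cells at all 4 times. Deviations of log2 CPM (prior count 2) from the group means correlated with r from 0.139 to 0.567 in the 36 pairs of libraries of 1 mouse and from -0.432 to 0.0742 in the 72 pairs of different mice of a genotype, so mouse was kept as a block. The mice within a group are separate animals, and no 2 libraries agreed within counting noise.

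Named in the text are Aim2, the genes marked as anchors in the lists, the genes with the largest called changes without overlap in each list and over all genes, and up to 5 called genotype differences in each direction; other genes given with a mean and a change are members of the lists and were chosen after their values were seen. Il24 and Il9 are of the latter kind, as are the 4 promoters printed. The 43 gene lists, the 10 marker lists, the comparison and the alternatives were chosen with earlier results of these data known. The fit of the 24 h against 6 h change in Aim2-/- cells was tried on simulated counts before use, with far fewer changed genes than were called here. The genotype difference, the gene lists and the promoter counts were not checked in this way. Alternatives were RLE size factors, library totals, DESeq2 1.42.0, limma-voom (limma 3.58.1), other filters, fewer libraries, no block and each mouse left out; counts of calls within each list and WT values without WT 1 were added after the data were seen. Some members of the lists are counted in the lists' totals but not reported here by name.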

Additional observations from a re-analysis of the deposited data

Results flagged for a closer look

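The change from 6 h to 24 h differed between Aim2-/- and WT cells for 26 of 15325 genes by the interaction term of edgeR's quasi-likelihood test (adjusted p under 0.05). Each value below is the log2 change in Aim2-/- cells minus that in WT cells, with 3 mice a genotype. Named are only protein-coding genes with a mean of at least 10 CPM in a group compared and a symbol that is not a clone or model name. Among these, the largest positive differences were of Il17a (1.89, adjusted p = 0.0452), Lpp (1.13, adjusted p = 0.0452), Ecm1 (0.97, adjusted p = 0.0452), Gpr146 (0.85, adjusted p = 0.0452) and Igfbp4 (0.80, adjusted p = 0.0452). Il17a, Lpp, Ecm1 and Gpr146 had negative fitted changes in both genotypes, closer to 0 in Aim2-/- cells. By the same limits the largest negative differences were of Mt1 (-1.36, adjusted p = 0.0364), Gls2 (-1.36, adjusted p = 0.0452), Mns1 (-1.35, adjusted p = 0.0364), Ncf1 (-1.20, adjusted p = 0.0364) and Naaa (-1.14, adjusted p = 0.0452). Mns1, Mt1 and Ncf1 had positive fitted changes in both genotypes, smaller in Aim2-/- cells. Without WT 1, whose Aim2 level goes against its label, all 10 kept their sign, with adjusted p between 0.0173 and 0.0492. All 10 lost their call when Aim2-/- 1, Aim2-/- 4, WT 3 or WT 4 was left out, without the replicate block and with only the 6 h and 24 h libraries, and 7 lost it by limma-voom.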

How the results depend on the processing

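The count of genes called between 24 h and 6 h in Aim2-/- cells was 9633 and stayed within 1.5 times of it under every alternative run, from 8329 without the replicate block to 9759 with library totals as the only scaling. Library totals moved the median log2 change of all genes from -0.04 to -0.14 and the share of calls that were higher from 48.5% to 42.4%. The genotype difference, with 26 genes called, 10 higher and 16 lower, was less stable, and the cause was not tested. With no replicate block it was 0 (0 higher, 0 lower), with only the 6 h and 24 h libraries 1 (0 and 1), by limma-voom 5 (2 and 3), by DESeq2 241 (103 and 138) and with no filter on low counts 739 (403 and 336). A mean of at least 1 CPM gave 16 higher. Leaving out 1 mouse at a time gave 1 to 325 calls, 0 to 64 higher and 1 to 261 lower, the most without Aim2-/- 2. Among medians of lists 731 values moved by no more than the spread between mice, whether or not their sign changed. Another 47 moved by more with the same sign, and 2 moved by more and changed sign. Of these 2, amino acid transporters, -0.06 in the main analysis, gave -0.14 to 0.05 when a mouse was left out. Platelet markers, -0.58, gave 0.18 with a mean of at least 1 CPM, where fewer genes were tested. For the named genes 4018 values kept their call, 99 lost it and 28 gained it, and of 140 values for the named genotype differences 68 lost it. Pairing by mouse changed the counts within lists by over 1.5 times only where stated in the report and for G1 genes (3 lower in place of 5), granzymes (3 lower in place of 5) and markers of B, myeloid, neutrophil and erythroid cells (2, 1, 1 and 0 lower). Depth limits genes near 0.154 CPM.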
